A study of Danio rerio with 12 samples.

Results

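Homozygous *mia40a* mutant larvae (Mut) were compared with wild-type siblings (WT) at 8 days post fertilization (dpf), an age at which the larvae had been offered external food since 5 dpf. The comparison rests on 6 of the 12 RNA-Seq libraries of the study, 3 Mut and 3 WT, and the other 6 hold the same genotypes at 5 dpf. Each library was made from a pool of 5 whole zebrafish larvae of the AB line. By the labels, Mut larvae carry the *mia40a*waw1 allele on both chromosomes, and they came, like WT, from crosses of heterozygous parents. The methods of the study name its *mia40a* allele otherwise, and whether both names stand for the same allele is not given in the sources used here. The labels name a single mutant allele, every organ is mixed in the same RNA sample, and a list of organ markers that is lower in Mut can reflect fewer cells of that organ or less RNA per cell, which cannot be told apart in these data. The labels do not say whether pools of a genotype came from separate clutches, so the p-values refer to differences between pools.

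Mia40, called CHCHD4 in mammals, is the oxidoreductase of the mitochondrial intermembrane space. It folds small cysteine-rich proteins by giving them disulfide bonds and traps them there, among them chaperones of inner membrane import and subunits of the respiratory chain. Larvae live on yolk at first and then depend on the gut, liver and pancreas to take up and store food, so the 8 dpf age falls after the change to feeding.

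The deposited values of a gene at 8 dpf are read counts that the authors normalized for library size, cleared of a batch effect and rounded. The number of reads behind a value is therefore not known, and the values of each library add up to between 24185532 and 25003708 in Mut and between 22595423 and 25417541 in WT. Each of 20963 genes was tested with limma on the log2 of its value plus 1, with the batch (replicates 1 and 2 against replicate 3) in the model. For the spread of a gene between pools, limma also draws on genes with similar values. Means said to be higher or lower in Mut are means of these log2 values. A gene is said to have risen or fallen where its Benjamini-Hochberg adjusted p was under 0.05, and to have passed both thresholds where its log2 fold change (Mut over WT) was also at least 0.9 in either direction. An exact permutation test of 3 pools against 3 cannot give a two-sided p under 0.1. Whether a gene responded to the genotype unequally at 5 and 8 dpf was tested over 20598 genes from separate limma fits of each age. Age and feeding change together in that difference.

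*mia40a* itself (symbol *chchd4a*, ENSDARG00000033376) had normalized values of 383, 413 and 443 in Mut and of 488, 394 and 397 in WT at 8 dpf. The groups overlapped, and the log2 fold change of *chchd4a* was -0.04 (standard error 0.12, adjusted p = 0.875 from limma), so its level did not mark the genotype. Its paralog *mia40b* (*chchd4b*) had values of 239, 215 and 206 in Mut and of 170, 175 and 191 in WT. No Mut value of *chchd4b* lay below a WT value, but its log2 fold change of 0.30 did not pass (adjusted p = 0.219 from limma).

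Of all genes, 190 passed both thresholds (0.906%), 43 with higher values in Mut (0.205%) and 147 with lower values (0.701%). Without the threshold on the fold change, 281 genes rose (1.34%) and 696 fell (3.32%). Lists of genes by pathway and organ held 125 of the 190 genes past both thresholds, 109 of them lower and 16 higher in Mut. The lists were chosen with earlier results of these data known, and some of their symbols come from the tables of the study. The count of 125 is therefore no measure of how much of the change the lists account for. The median log2 fold change of all genes was 0.01. The lists with the lower medians were those of the lens, of cholesterol synthesis and of the liver, gut and pancreas, while those of muscle, of fuel use and of the FoxO and autophagy genes lay above 0. Other lists above 0 included the cytosolic tRNA synthetases (median 0.25, 5 of 21 rose). The serine, one-carbon and amino-acid response genes were likewise above 0 (median 0.22, 3 of 32 rose). The count of genes past both thresholds fell to 26 without Mut replicate 1, 31 without Mut replicate 2 and 100 without WT replicate 2. It was 91 without Mut replicate 3 and 90 without WT replicate 3. In these fits the batch term takes up the replicate 3 library that is left. Their genotype effect then rests on replicates 1 and 2 only, here and for each list below. The count was 0 when limma estimated the spread without its trend on the mean, with 3873 genes at an unadjusted p under 0.05, against 4354 with the trend. When replicates 1 and 2 were tested alone, 91 genes passed (0.434%), and 85 of these had the same direction in replicate 3, against 65.2% of all genes.

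**Figure D1:**
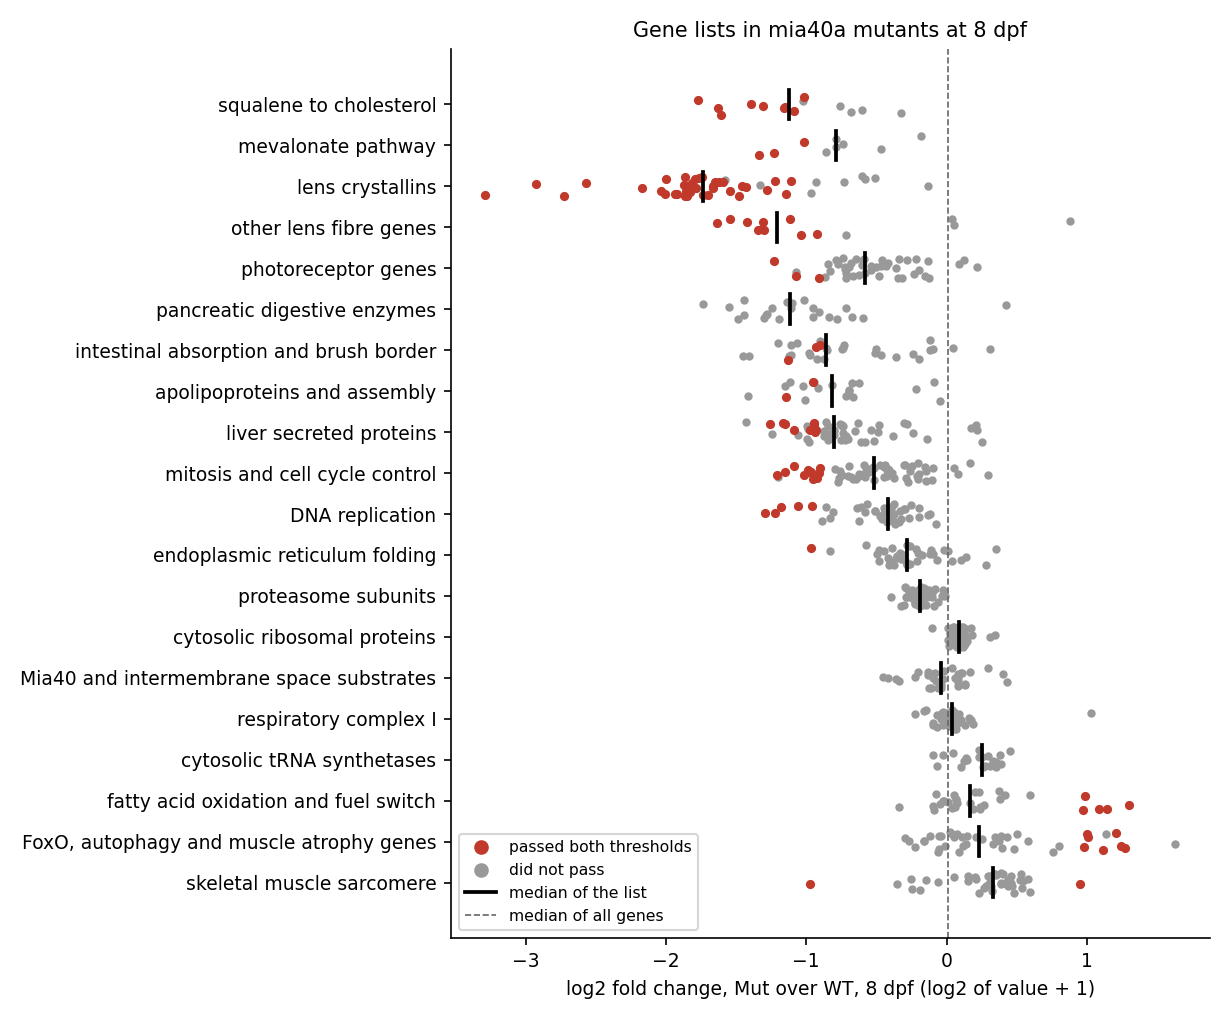
Log2 fold change (Mut over WT, x axis) of the members of 20 gene lists at 8 dpf, with a row for each list. Red points passed both thresholds, grey points did not, black bars are list medians and the dashed line is the median of all genes. The crystallins and the cholesterol enzymes lie to the left, with medians of -1.74, -1.12 and -0.79, and the sarcomere genes to the right, with a median of 0.33.

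Every enzyme measured along the path from acetyl-CoA to cholesterol had lower values in Mut. The path joins acetyl units into mevalonate, isoprenes and squalene, and then closes squalene to lanosterol and trims it to cholesterol. All 23 genes had lower values in each Mut pool than in any WT pool, which held for 17.3% of all genes, 19 of them fell and 12 passed both thresholds. Their median log2 fold change was -1.01, with a range of -1.77 to -0.18.

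*sqlea*, squalene epoxidase, the first oxygen-requiring step, had values of 167, 168 and 191 in Mut and of 739, 529 and 553 in WT (log2 fold change -1.77, standard error 0.15, adjusted p = 0.00708 from limma). The groups were far apart, and *sqlea* passed with any single library left out. *cyp51*, the lanosterol demethylase, had values of 359, 279 and 360 in Mut and of 1091, 1042 and 946 in WT (log2 fold change -1.63). *lss*, lanosterol synthase, had values of 125, 98 and 124 in Mut and of 483, 275 and 328 in WT (-1.61). These 3 adjacent steps carried the larger falls. In the mevalonate part, *hmgcs1*, HMG-CoA synthase, had values of 1305, 1170 and 1287 in Mut and of 3705, 2763 and 3096 in WT (-1.34). *hmgcra*, the rate-limiting HMG-CoA reductase, had values of 1117, 979 and 922 in Mut and of 2160, 1737 and 2214 in WT (-1.01, adjusted p = 0.00946 from limma). The smallest difference of the path was that of *ggps1*, which leads off to geranylgeranyl groups, at -0.18 (adjusted p = 0.251 from limma).

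At 5 dpf the same enzymes stood the other way: 21 of the 23 had higher means in Mut, 9 of them rose (4.02% of all genes did at that age), and their median was 0.47. The genotype effect was lower at 8 dpf for 21 of the 23, against 6.15% of all genes. For *sqlea* the difference of the log2 fold changes (8 minus 5 dpf) was -2.61 (standard error 0.29, with an adjusted p of 4.3e-05 from both limma fits), and for *cyp51* it was -2.51 (adjusted p = 6.39e-06). In the batch of replicates 1 and 2 the medians of the mevalonate and the squalene lists were -0.82 and -1.18, and in that of replicate 3 they were -0.74 and -1.08. The number of enzymes from squalene onwards past both thresholds, 9 of 14, was 2 without Mut replicate 1, 3 without Mut replicate 2, and 4 without Mut replicate 3 or WT replicate 3. Of the 9 mevalonate genes 3 passed, and 1 did without Mut replicate 2.

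**Figure D2:**
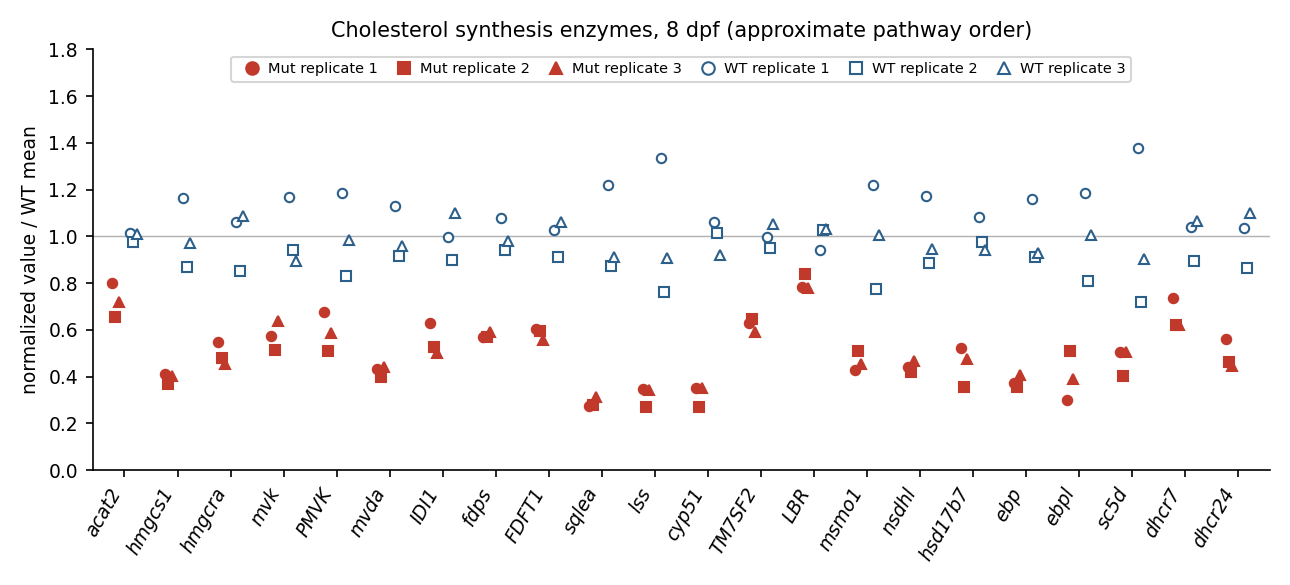
Normalized value of each cholesterol synthesis enzyme divided by its WT mean (y axis), by library, in approximate pathway order at 8 dpf. Red symbols are Mut and open blue symbols are WT, and the symbol shape is the replicate. All Mut symbols lie below all WT symbols of the same gene, from *hmgcs1* (log2 fold change -1.34) over *sqlea* (-1.77) to the later steps.

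Genes that control sterol synthesis and uptake moved less. SREBP2 (*srebf2*) is the transcription factor that turns on cholesterol enzymes when sterols are low, and INSIG1 holds it back in the endoplasmic reticulum. *srebf2* fell, with values of 1591, 1416 and 1427 in Mut and of 2011, 2250 and 2254 in WT (log2 fold change -0.55, adjusted p = 0.0155 from limma). *insig1*, itself a known SREBP target, had values of 194, 182 and 165 in Mut and of 468, 405 and 499 in WT (-1.34, adjusted p = 0.00708 from limma). *ldlrb*, an LDL receptor gene, had values of 171, 201 and 175 in Mut and of 302, 453 and 395 in WT (-1.05, adjusted p = 0.0171 from limma). Of the 16 genes of this list 3 fell and 0 rose, and the median was -0.10. *srebf2* and *ldlrb* each kept an adjusted p under 0.05 in 1 of the 6 fits that left out a library, and *insig1* in all 6.

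Fatty acid synthesis showed a narrower change. Of 12 genes, 3 fell and 2 passed both thresholds, with a median of -0.33. The 2 make long polyunsaturated fatty acids: *elovl2*, an elongase, had values of 320, 427 and 404 in Mut and of 889, 676 and 715 in WT (log2 fold change -0.98, adjusted p = 0.0155 from limma), and *fads2*, the desaturase, had values of 1207, 1329 and 1073 in Mut and of 3716, 1715 and 3005 in WT (-1.16, adjusted p = 0.0421 from limma). The *fads2* groups came closest at the second WT pool. *fasn*, fatty acid synthase, had a log2 fold change of -0.31 (adjusted p = 0.0814 from limma). No gene of this list passed both thresholds when Mut replicate 1, Mut replicate 2, Mut replicate 3, WT replicate 1 or WT replicate 3 was left out.

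The crystallins of the eye lens had the lowest median of the organ lists. Crystallins are the soluble proteins that fill lens fibre cells, and fish hold a large family of gamma-M crystallins. Of 47 crystallin genes, all had lower means in Mut (47.9% of all genes did), and 38 passed both thresholds. Every Mut value was below every WT value for 44 of the 47, against 17.3% of all genes. The median log2 fold change of the 47 was -1.74, with a range of -3.29 to -0.13. The summed values of the list were 94995, 164137 and 193540 in Mut and 601730, 498248 and 352578 in WT, a ratio of 0.312. The order of the pools was the reverse in the 2 groups: replicate 1 was the lowest of Mut and the highest of WT. For replicate 3 the batch removal forces such a reversal, since it centres the mean of its Mut and WT pools on that of the others.

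Among the gamma-M genes, *crygm2d10* had values of 8336, 12335 and 14253 in Mut and of 38394, 31815 and 25059 in WT (log2 fold change -1.46, standard error 0.22, adjusted p = 0.0164 from limma). *crygm2d17* had values of 460, 1364 and 1361 in Mut and of 6834, 6634 and 3949 in WT (-2.57, standard error 0.41, adjusted p = 0.0191 from limma). Beta crystallins moved with the gamma-M genes. *cryba4* had values of 3231, 5866 and 7736 in Mut and of 24627, 19822 and 12530 in WT (-1.79, adjusted p = 0.028 from limma). *cryaa*, the alpha crystallin that also acts as a chaperone, had values of 277, 301 and 352 in Mut and of 648, 779 and 589 in WT (-1.11, adjusted p = 0.0109 from limma). *crygm7* was among the 9 crystallins that did not pass both thresholds, with 86, 148 and 169 in Mut and 219, 118 and 109 in WT and a log2 fold change of -0.13. All 26 *crygm2* genes found in the data lie on chromosome 9 of the GRCz12tu assembly, with 3 other genes between the first and the last, and 25 of them passed. Such close copies share reads that the authors left out, so the value of a single *crygm2* gene is uncertain and its neighbours are not separate evidence.

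Lens genes outside the crystallin family were lower too. Of 14, 10 passed both thresholds, with a median of -1.21. Whether any of the 14 lie side by side or share reads was not tested. *mipb*, the lens water channel aquaporin 0, had values of 223, 244 and 244 in Mut and of 496, 492 and 476 in WT (log2 fold change -1.04, standard error 0.09, adjusted p = 0.00708 from limma). Its spread within a group was small, and *mipb* passed with any single library left out. *mipa*, the second aquaporin 0 gene, had 176, 176 and 212 in Mut and 435, 429 and 363 in WT (-1.12). *bfsp2*, a beaded filament protein of fibre cells, had 526, 960 and 1142 in Mut and 3293, 2447 and 1780 in WT (-1.54, adjusted p = 0.0325 from limma), in the same order of pools as the crystallins. Not every lens gene was lower. *lim2.2*, a lens membrane protein gene, had 36, 37 and 45 in Mut and 20, 25 and 18 in WT and did not pass (0.88, adjusted p = 0.0917 from limma).

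At 5 dpf the crystallin median was 0.00 over 45 genes. The genotype effect was lower at 8 dpf for 32 of the 45, against 6.15% of all genes. The size at 8 dpf differed between the batches, with a median of -2.19 in replicates 1 and 2 and of -0.85 in replicate 3. The number of crystallins past both thresholds was 5 without Mut replicate 1, 0 without Mut replicate 2, 25 without WT replicate 1 and 3 without WT replicate 2. For the other lens genes it was 2, 1, 5 and 3 in the same order, and 6 without WT replicate 3. When limma estimated its prior spread robustly, 4 of the 47 crystallins and 6 of the 14 other lens genes passed both thresholds.

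**Figure D3:**
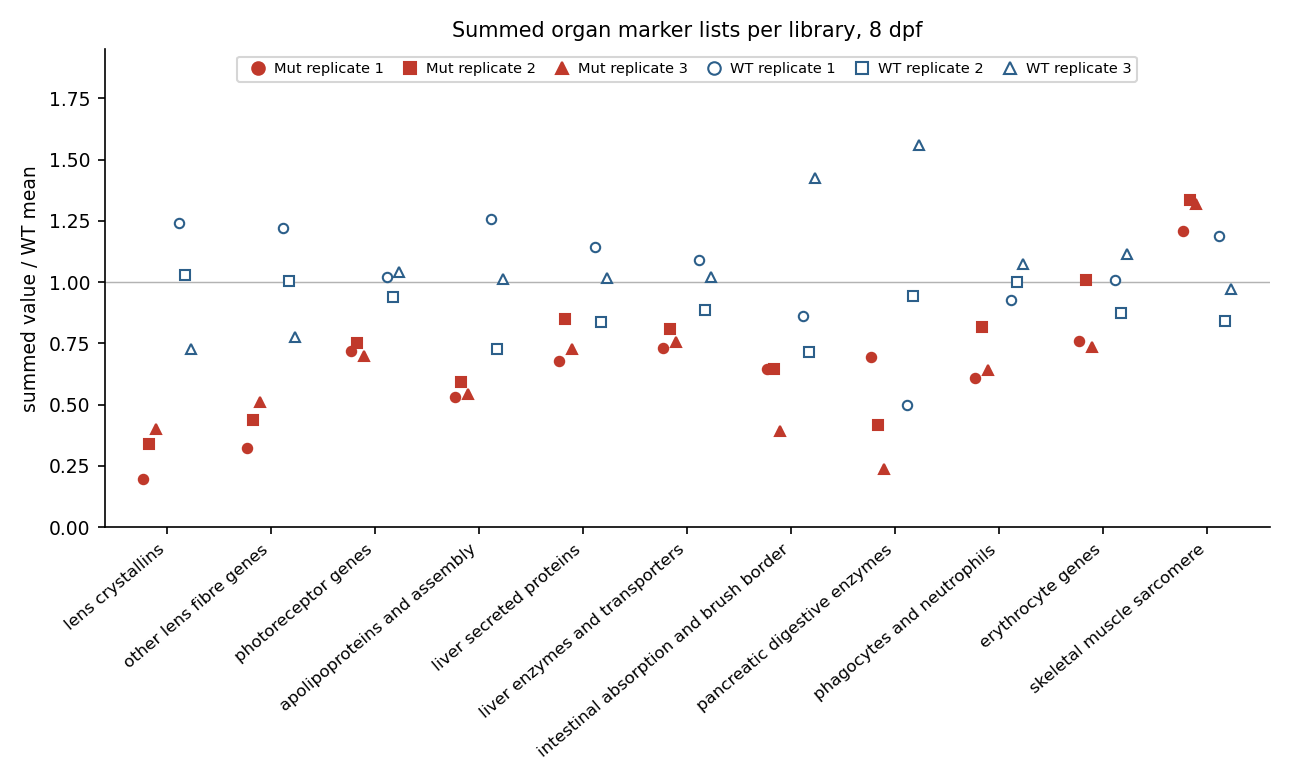
Summed normalized values of each organ marker list divided by the WT mean (y axis), by library at 8 dpf. Red symbols are Mut and open blue symbols are WT, and the symbol shape is the replicate. The Mut sums of the crystallins, the lens fibre genes, the photoreceptor genes and the apolipoproteins all lie below the WT sums, the muscle sums all lie above, and those of the liver secreted proteins, the pancreatic enzymes and the erythrocyte genes overlap.

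In the retina, rod and cone genes were lower in Mut. Rods serve dim light with rhodopsin and cones serve colour vision. Of 45 photoreceptor genes 22 fell, 3 passed both thresholds and the median was -0.58. *nr2e3*, a nuclear receptor that sets rod identity and represses cone genes, had values of 200, 183 and 151 in Mut and of 409, 361 and 489 in WT (log2 fold change -1.23, standard error 0.16, adjusted p = 0.0123 from limma). *rx2*, a homeobox gene of the retina, had values of 110, 137 and 103 in Mut and of 240, 222 and 275 in WT (-1.07, adjusted p = 0.016 from limma). *arr3b*, a cone arrestin that ends the light response, had values of 1374, 1590 and 1469 in Mut and of 3413, 2225 and 2795 in WT (-0.91, adjusted p = 0.0189 from limma). The count of 3 was 0 without Mut replicate 1 or Mut replicate 2, 1 without Mut replicate 3 or WT replicate 3, and 6 without WT replicate 2.

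The split of these genes into rod and cone genes was made after the values were seen. All 9 rod genes were lower in every Mut pool than in any WT pool, against 17.3% of all genes. The 9 had a median log2 fold change of -0.72, and 5 of them fell. *rho*, rhodopsin, had values of 25637, 25807 and 23333 in Mut and of 44302, 35356 and 43971 in WT (-0.72, adjusted p = 0.0209 from limma). *gnat1*, the rod transducin, had values of 2066, 2167 and 1883 in Mut and of 3861, 2954 and 3823 in WT (-0.79), and *sagb*, a rod arrestin, had a log2 fold change of -0.84. *rho*, *gnat1* and *sagb* each kept an adjusted p under 0.05 in 2 of the 6 fits that left out a library. Of 14 cone genes 8 fell, with a median of -0.50, and 10 were lower in every Mut pool than in any WT pool. *GNAT2*, the cone transducin, had values of 9107, 9634 and 8727 in Mut and of 13456, 12418 and 13983 in WT (-0.54, adjusted p = 0.0169 from limma). *opn1sw1*, the ultraviolet opsin, had a log2 fold change of -0.28 that did not pass (adjusted p = 0.144 from limma).

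Some rod genes responded more strongly at the later age. At 5 dpf 0 of the 9 rod genes and 11 of the 14 cone genes fell (2.16% of all genes did), with medians of -0.22 and -0.63. The genotype effect was lower at 8 dpf for 3 of the 9 rod genes, against 6.15% of all genes. These were *rho* (adjusted p = 0.0204 from the limma fits of each age), *gnat1* (0.0274) and *sagb* (0.0255). The effect was lower for 0 of the 14 cone genes, whose adjusted p ran from 0.0543 to 0.754 in the same fits. Whether rods and cones differ from each other in this was not tested.

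**Figure D4:**
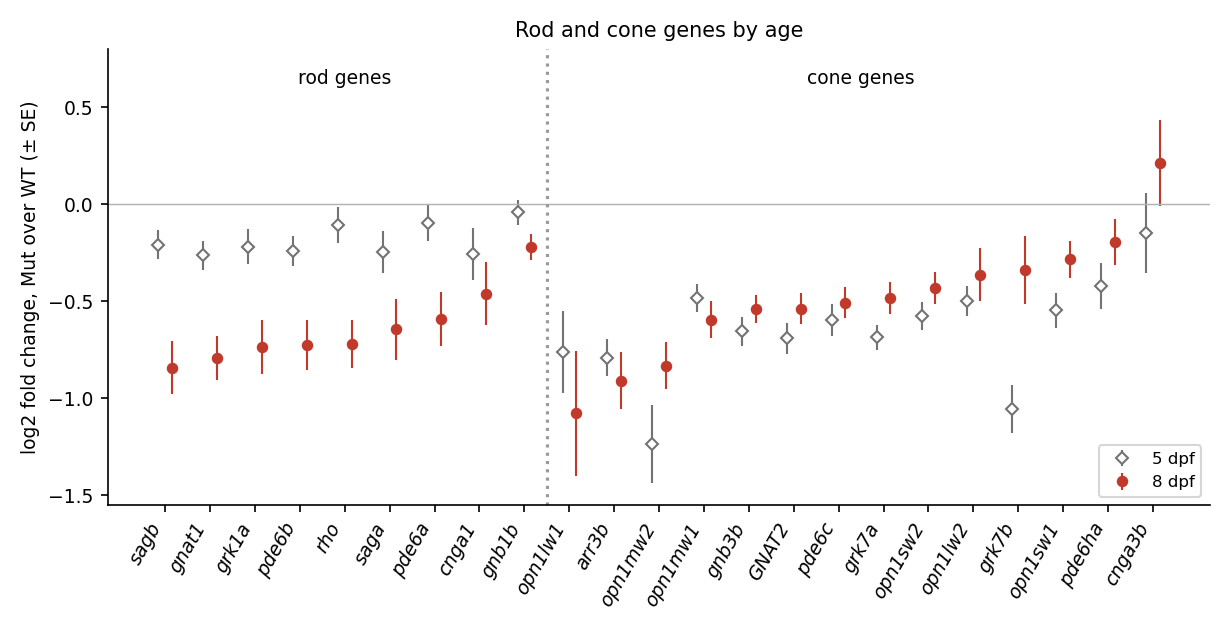
Log2 fold change (Mut over WT, y axis, with its standard error) of 9 rod genes and 14 cone genes at 5 dpf (open grey diamonds) and 8 dpf (red circles). The rod genes lie lower at 8 dpf (median -0.72) than at 5 dpf (-0.22), and the cone genes have medians of -0.63 at 5 dpf and -0.50 at 8 dpf.

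Genes of dividing cells were lower in Mut. Of 46 genes of DNA replication, all had lower means in Mut, 26 fell and 5 passed both thresholds, with a median of -0.42. Every Mut value was below every WT value for 44 of the 46, against 17.3% of all genes. *slbp*, which binds the histone messages made in S phase, had values of 463, 414 and 423 in Mut and of 818, 840 and 865 in WT (log2 fold change -0.96, standard error 0.08, adjusted p = 0.00708 from limma). *dck* and *tk1* are kinases that salvage deoxynucleosides: *dck* had values of 86, 109 and 106 in Mut and of 257, 249 and 233 in WT (-1.29), and *tk1* had 294, 195 and 220 in Mut and 457, 575 and 562 in WT (-1.18). *pcna*, the sliding clamp of the polymerase and the most familiar proliferation marker, had values of 6655, 6307 and 6278 in Mut and of 9153, 9750 and 9825 in WT (-0.58, adjusted p = 0.0109 from limma). The *pcna* values of a group lay close together.

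Of 64 genes of mitosis and cell cycle control, 23 fell and 11 passed both thresholds, with a median of -0.52. *mybl2b*, the B-Myb transcription factor of late cell cycle genes, had values of 270, 204 and 216 in Mut and of 490, 535 and 563 in WT (log2 fold change -1.21, standard error 0.13, adjusted p = 0.00938 from limma). *ccne2* and *ccna2* encode the cyclins of S phase entry and of S to G2. *ccne2* had values of 274, 282 and 241 in Mut and of 516, 560 and 625 in WT (-1.09). *ccna2* had values of 383, 402 and 334 in Mut and of 648, 729 and 813 in WT (-0.97). Ki-67 (*mki67*) had values of 1825, 1926 and 1567 in Mut and of 2642, 2914 and 3347 in WT (-0.74), and topoisomerase 2 (*top2a*) had a log2 fold change of -0.70.

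The 2 proliferation lists had medians of 0.20 and 0.03 at 5 dpf. The effect was lower at 8 dpf for 38 of 46 replication genes and 27 of 64 mitosis genes, against 6.15% of all genes. For *pcna*, which rose at 5 dpf (log2 fold change 0.34, adjusted p = 0.0216 from limma), the difference was -0.92 (adjusted p = 2.08e-05 from the limma fits of each age). The replication count past both thresholds was 2 without Mut replicate 1, Mut replicate 2, Mut replicate 3, WT replicate 2 or WT replicate 3. The mitosis count was 1 without Mut replicate 1, 2 without Mut replicate 2, Mut replicate 3 or WT replicate 3, and 4 without WT replicate 2.

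Liver genes were lower as a group, with less agreement between libraries. Of 53 genes for proteins that the liver secretes into blood, 20 fell, 9 passed both thresholds and the median was -0.80. *f2*, prothrombin, had values of 170, 261 and 231 in Mut and of 617, 403 and 456 in WT (log2 fold change -1.15, adjusted p = 0.0228 from limma). *cfb*, complement factor B, had values of 97, 155 and 124 in Mut and of 365, 242 and 294 in WT (-1.26, adjusted p = 0.0209 from limma), and *vtnb*, a vitronectin gene, had 79, 123 and 97 in Mut and 267, 182 and 224 in WT (-1.17). *fgb*, the beta chain of fibrinogen, fell with 653, 866 and 844 in Mut and 1630, 1297 and 1304 in WT (-0.84). *hp*, haptoglobin, fell at 8 dpf (-0.93, adjusted p = 0.042 from limma) about as it did at 5 dpf (-0.85), whereas *f2* and *fgb* had log2 fold changes of 0.12 and 0.21 at 5 dpf. The effect was lower at 8 dpf for 11 of the 53 and higher for 5, against 6.15% and 1.94% of all genes. The list sums were 47582, 59538 and 51067 in Mut and 80331, 58701 and 71451 in WT, so the lowest WT pool lay within the Mut range. The count past both thresholds was 0 without Mut replicate 1, 2 without Mut replicate 2, 1 without Mut replicate 3 or WT replicate 3, and 3 without WT replicate 1.

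Apolipoproteins carry lipid out of liver, gut and yolk. All 19 genes of this list had a log2 fold change below 0, with a median of -0.81, but 2 passed. *apoc2*, the activator of lipoprotein lipase, had values of 1383, 1176 and 1071 in Mut and of 2340, 2048 and 2629 in WT (log2 fold change -0.95, adjusted p = 0.0124 from limma). *apoa2*, for another protein of these particles, had values of 8754, 10376 and 11582 in Mut and of 34394, 16576 and 19800 in WT (-1.14, adjusted p = 0.0441 from limma). The first WT pool alone was far above the rest for *apoa2*. *apoa1b*, for the main protein of high density lipoprotein, had 25922, 33036 and 32426 in Mut and 70739, 42735 and 50006 in WT and did not pass (-0.81, adjusted p = 0.0587 from limma). Scaling every library to the same total raised the count past both thresholds to 5. It was 0 without Mut replicate 2, Mut replicate 3 or WT replicate 3, 1 without Mut replicate 1 or WT replicate 1, and 4 without WT replicate 2.

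Among 26 liver enzymes and transporters, 3 passed both thresholds and the median was -0.54. *otc*, the urea cycle enzyme ornithine transcarbamylase, had values of 43, 47 and 51 in Mut and of 145, 99 and 107 in WT (log2 fold change -1.28, adjusted p = 0.0192 from limma). *otc* had a log2 fold change of 0.11 at 5 dpf, and the difference between the ages passed (adjusted p = 0.00733 from the limma fits of each age). The count of 3 was 0 without Mut replicate 2, Mut replicate 3 or WT replicate 3, and 1 without Mut replicate 1.

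Some genes that handle glucose were lower in Mut. *hkdc1*, a hexokinase relative, had values of 78, 114 and 110 in Mut and of 326, 208 and 226 in WT (log2 fold change -1.31, adjusted p = 0.0207 from limma). *hkdc1* kept an adjusted p under 0.05 in 1 of the 6 fits that left out a library. Among enzymes that release glucose, *g6pca.2*, glucose 6-phosphatase, had 595, 495 and 535 in Mut and 1212, 949 and 1095 in WT (-1.0), and *fbp1b*, fructose bisphosphatase, had 501, 679 and 511 in Mut and 987, 867 and 1064 in WT (-0.80, adjusted p = 0.021 from limma). *pck1*, the entry enzyme of gluconeogenesis, had overlapping groups (-0.46, adjusted p = 0.268 from limma).

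Of 25 glycolytic enzymes 4 fell and 3 rose (3.32% and 1.34% of all genes did). No gene of this list passed both thresholds when Mut replicate 1, Mut replicate 2, Mut replicate 3, WT replicate 2 or WT replicate 3 was left out. The phosphoglycerate mutases split by isoform: *pgam1a* fell, with 1407, 1519 and 1364 in Mut and 2319, 1826 and 2224 in WT (log2 fold change -0.56, adjusted p = 0.024 from limma), while *pgam2*, the muscle form, rose, with 4420, 4809 and 4558 in Mut and 3283, 2561 and 2956 in WT (0.65, adjusted p = 0.016 from limma). *ins*, insulin, had low values, 35, 53 and 34 in Mut and 81, 118 and 123 in WT (-1.38, adjusted p = 0.0278 from limma). *ins* was the 1 gene of 13 in the endocrine pancreas list past both thresholds, and it kept an adjusted p under 0.05 in 1 of the 6 fits that left out a library.

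Digestive and absorptive genes were lower on average in Mut, with wide spread between pools. Of 24 pancreatic digestive enzyme genes 23 had lower means in Mut, with a median of -1.11. In limma's test 0 passed and 11 had an unadjusted p under 0.05, against 4354 of all 20963 genes. *try*, trypsin, had values of 6053, 3260 and 2046 in Mut and of 4596, 8944 and 14030 in WT (log2 fold change -1.28, adjusted p = 0.168 from limma). The list sum of the first WT pool, 25296, was below that of the first Mut pool, 35278, while the third pools stood at 12130 in Mut and 79171 in WT. Without WT replicate 1, 6 of the 24 passed both thresholds. The median was -0.36 in replicates 1 and 2 and -2.70 in replicate 3. At 5 dpf 18 of the 24 fell (2.16% of all genes did), with a median of -1.07. The genotype effect passed as different between the ages for 0 of the 24.

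In the list of 31 intestinal genes 3 passed both thresholds and the median was -0.86, again with a wider difference in replicate 3 (-1.50) than in replicates 1 and 2 (-0.24). *fabp2*, the intestinal fatty acid binding protein, had values of 2151, 1578 and 697 in Mut and of 2802, 1746 and 5892 in WT (log2 fold change -1.20, adjusted p = 0.222 from limma). *rbp2b*, a retinol binding protein of gut and liver, did not share this pattern, with 207, 309 and 274 in Mut and 668, 511 and 543 in WT (-1.13, adjusted p = 0.016 from limma). *rbp2b* also fell at 5 dpf (-1.70), and the difference between the ages did not pass (adjusted p = 0.176 from the limma fits of each age). At 5 dpf 5 of the 31 fell (2.16% of all genes did), with a median of -0.36. The effect was lower at 8 dpf for 1 of the 31 and higher for 1. For all genes the shares were 6.15% and 1.94%, so these 2 counts do not set the list apart. The count of 3 was 0 without Mut replicate 1, Mut replicate 3 or WT replicate 3, and 1 without Mut replicate 2 or WT replicate 2.

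Genes of fuel choice were among the rises in Mut. Pyruvate dehydrogenase kinases close the way of pyruvate into the citric acid cycle and so spare glucose. *pdk2b* had values of 5478, 5726 and 4480 in Mut and of 2624, 1452 and 2458 in WT (log2 fold change 1.3, standard error 0.21, adjusted p = 0.0196 from limma). *pdk4* had values of 1090, 1112 and 1034 in Mut and of 547, 515 and 570 in WT (0.99, standard error 0.08, adjusted p = 0.00708 from limma). *acacb* makes the malonyl-CoA that restrains fatty acid entry into mitochondria, and had 2227, 2361 and 1997 in Mut and 1021, 945 and 1137 in WT (1.09, adjusted p = 0.00708 from limma). *cpt1b*, the muscle carnitine transferase that malonyl-CoA restrains, had 1240, 1297 and 1156 in Mut and 720, 511 and 670 in WT (0.97). *lpin1*, a phosphatidate phosphatase that also acts as a coactivator of lipid oxidation genes, had 2927, 2587 and 3331 in Mut and 1850, 1072 and 1172 in WT (1.15, adjusted p = 0.0214 from limma).

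Of the 31 genes of fatty acid oxidation and fuel switch 6 rose, 5 of them past both thresholds, 25 did not pass, and the median was 0.17. All Mut values were above all WT values for 13 of the 31, against 15.3% of all genes. The sixth was *cpt1ab*, a carnitine transferase, at 0.42 (adjusted p = 0.0164 from limma). *acadm*, the medium-chain dehydrogenase of beta oxidation, had 3649, 4169 and 4058 in Mut and 3959, 3646 and 3679 in WT (log2 fold change 0.07, adjusted p = 0.638 from limma). At 5 dpf 6 genes of this list rose, and the effect was higher at 8 dpf for 5 of the 31, against 1.94% of all genes, namely *pdk2b*, *pdk4*, *acacb*, *cpt1b* and *lpin1*. The count past both thresholds was 3 when limma estimated its prior spread robustly, 2 without Mut replicate 1, Mut replicate 2, Mut replicate 3 or WT replicate 3, and 3 without WT replicate 2.

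FoxO factors switch on autophagy and protein breakdown when insulin signalling is low. Of 42 genes of FoxO signalling, autophagy and muscle atrophy, 12 rose (1.34% of all genes did), 0 fell and the median was 0.23. Of the 42, 7 passed both thresholds with higher values in Mut (0.205% of all genes did). Without the genes whose symbol came from the tables of the study, 4 of 36 did. *ulk1a*, the kinase that starts autophagy, had values of 536, 552 and 448 in Mut and of 186, 208 and 241 in WT (log2 fold change 1.27, standard error 0.13, adjusted p = 0.00938 from limma). *psme4a*, a proteasome activator, had 1721, 1797 and 1539 in Mut and 986, 467 and 781 in WT (1.24, adjusted p = 0.029 from limma). *nfe2l1a*, known in mammals as an activator of proteasome genes, had 441, 518 and 438 in Mut and 232, 185 and 228 in WT (1.11, adjusted p = 0.00961 from limma). The proteasome subunits did not rise with these. Of 43, 0 passed in limma and 6 had an unadjusted p under 0.05, against 4354 of all 20963 genes. All 43 had lower means in Mut, and the median was -0.37 in replicates 1 and 2 and 0.22 in replicate 3.

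*asb10*, a substrate adaptor of ubiquitin ligases, had 343, 414 and 384 in Mut and 188, 143 and 162 in WT (log2 fold change 1.21, adjusted p = 0.0095 from limma). *eif4ebp3l*, a repressor of cap-dependent translation, had 2117, 1756 and 1684 in Mut and 1031, 740 and 1008 in WT (1.01, adjusted p = 0.015 from limma). *hbp1*, a transcription factor that slows the cell cycle, had 509, 496 and 513 in Mut and 301, 214 and 251 in WT (1.00). The Mut pools agreed closely for *hbp1*. *crebrf*, a regulator known in people for its part in energy storage, had 122, 141 and 146 in Mut and 61, 82 and 64 in WT (0.98, adjusted p = 0.0273 from limma). The atrophy ligase *FBXO32* had the largest log2 fold change of the list, 1.63, with 358, 335 and 461 in Mut and 303, 59 and 102 in WT, and did not pass (adjusted p = 0.115 from limma), with a wide spread among the WT pools. At 5 dpf the median of the list was -0.10, and the effect was higher at 8 dpf for 18 of 42, against 1.94% of all genes. The count past both thresholds was 0 without Mut replicate 1 or Mut replicate 2, 2 without Mut replicate 3 or WT replicate 3, and 4 without WT replicate 2.

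**Figure D5:**
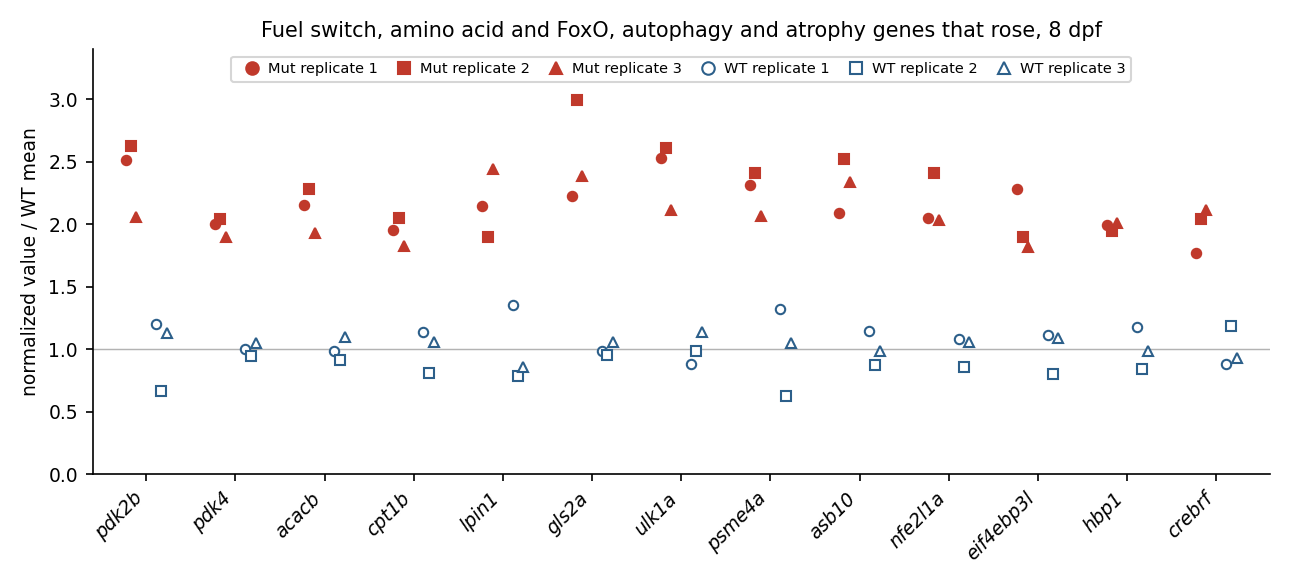
Normalized value of 13 genes that rose past both thresholds divided by the WT mean (y axis), by library at 8 dpf. Red symbols are Mut and open blue symbols are WT, and the symbol shape is the replicate. The Mut symbols lie above the WT symbols for each gene, from *gls2a* (log2 fold change 1.32) to *cpt1b* (0.97).

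Of the 26 genes of gluconeogenesis and amino acid breakdown 5 rose, 2 fell and 19 did not pass (1.34% of all genes rose and 3.32% fell). *gls2a*, a glutaminase, had values of 252, 339 and 270 in Mut and of 112, 108 and 120 in WT (log2 fold change 1.32, standard error 0.15, adjusted p = 0.00946 from limma). *GPT* (ENSDARG00000055642), the alanine transaminase that feeds alanine carbon to pyruvate, had 798, 918 and 1042 in Mut and 570, 457 and 423 in WT (0.93, adjusted p = 0.016 from limma). In this list 2 genes passed both thresholds upwards and *g6pca.2* downwards, and the median was 0.10. The count of 3 was 1 without Mut replicate 1, Mut replicate 2, Mut replicate 3 or WT replicate 3.

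Of 14 genes of the growth hormone and IGF axis 1 rose, 1 fell and 12 did not pass (1.34% of all genes rose and 3.32% fell). *ghrb*, a growth hormone receptor, rose, with 674, 492 and 583 in Mut and 281, 361 and 316 in WT (log2 fold change 0.86, adjusted p = 0.0198 from limma). The other receptor gene, *ghra*, had 35, 46 and 49 in Mut and 20, 26 and 19 in WT and did not pass (0.97, adjusted p = 0.0784 from limma). *cishb* (ENSDARG00000096988), an inhibitor induced by growth hormone signalling, had 57, 40 and 56 in Mut and 131, 126 and 112 in WT (-1.27, adjusted p = 0.0188 from limma). *lepr*, the leptin receptor, had 659, 603 and 580 in Mut and 383, 371 and 413 in WT (0.66, adjusted p = 0.0135 from limma). *lepr* was the 1 gene of 11 in the list of appetite hormones and neuropeptides to pass.

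Muscle genes took a larger part of the summed values in Mut. Of 44 sarcomere genes 37 had higher means in Mut (52.1% of all genes did), 5 rose (1.34% of all genes did), and the median was 0.33. Past both thresholds were 2, 1 higher and 1 lower in Mut. The count of 2 was 0 without Mut replicate 1, Mut replicate 2, Mut replicate 3, WT replicate 2 or WT replicate 3, and 1 without WT replicate 1. Without the genes whose symbol came from the tables of the study, 0 of 32 passed both thresholds. *tnnt2b*, a troponin T gene, had 136, 184 and 150 in Mut and 79, 78 and 83 in WT (log2 fold change 0.95, adjusted p = 0.0228 from limma), while *tnni2a.1*, a fast troponin I gene, had 47, 56 and 55 in Mut and 101, 110 and 101 in WT (-0.97, adjusted p = 0.0244 from limma). The summed sarcomere values were 3327185, 3669743 and 3627398 in Mut and 3271785, 2311043 and 2670337 in WT. Each Mut sum was above each WT sum, though the first WT pool lay close to the first Mut pool. Values are relative to the library, and the part that this shift has in the other lists was not tested.

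In the 3 lists of mitochondrial genes 0 passed at 8 dpf, where 1.34% of all genes rose and 3.32% fell. Of all 20963 genes, 4354 had an unadjusted p under 0.05 from limma. Of 35 genes for Mia40 and its intermembrane space substrates, 0 passed in limma, 6 had an unadjusted p under 0.05 and the median was -0.04. Of 107 genes of the respiratory chain, ATP synthase and mitochondrial genome, 0 passed and 8 had an unadjusted p under 0.05, with a median of 0.04 and a range of -0.79 to 1.03. The 103 genes of the mitochondrial ribosome, import and chaperones gave 0 that passed and 11 at an unadjusted p under 0.05, with a median of -0.05. At 5 dpf, 45 of 106 and 47 of 102 genes of the last 2 groups rose (4.02% of all genes did), with medians of 0.28 and 0.38. The effect was lower at 8 dpf for 16 of the 35, 19 of the 106 and 40 of the 102, against 6.15% of all genes. *mt-co1*, the cytochrome oxidase subunit encoded in mitochondria, had 484443, 487910 and 466563 in Mut and 355719, 336033 and 363076 in WT. Its groups did not overlap, but it did not pass (log2 fold change 0.45, adjusted p = 0.349 from limma). The standard deviations of *mt-co1* were 11455.8 in Mut and 13982.1 in WT, so its standard error of 0.25 rests mainly on genes with similar values. *MT-ND2*, a complex I subunit, had a log2 fold change of -0.04.

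Of 38 genes for folding in the endoplasmic reticulum 13 fell and 25 did not pass, 6 of the 38 had higher means in Mut, and the median was -0.28. All Mut values were below all WT values for 27 of the 38, against 17.3% of all genes. The abundant chaperones *hspa5* (BiP; log2 fold change -0.28, adjusted p = 0.118 from limma) and *CANX* (calnexin; -0.28, adjusted p = 0.0659 from limma) did not pass. *creld2*, a folding factor induced by stress, had 150, 145 and 176 in Mut and 297, 292 and 249 in WT (log2 fold change -0.83, adjusted p = 0.0193 from limma). *hyou1*, a chaperone, had 957, 1014 and 1005 in Mut and 1520, 1445 and 1464 in WT (-0.57, adjusted p = 0.00961 from limma), and *hsp90b1*, another, had a log2 fold change of -0.49. At 5 dpf the list had a median of 0.29 and 16 of its genes rose (4.02% of all genes did). The log2 fold changes at that age were 0.84 for *creld2*, 1.02 for *hyou1* and 0.71 for *hsp90b1*. The effect was lower at 8 dpf for 24 of 38, against 6.15% of all genes. Of 84 cytosolic ribosomal protein genes 0 passed in limma and 1 had an unadjusted p under 0.05 (4354 of all 20963 genes did), with a median of 0.09. Higher means in Mut were found for 83 of the 84 (52.1% of all genes).

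Markers of blood and immune cells gave few calls, though most phagocyte and neutrophil genes had lower means in Mut. Of 19 phagocyte and neutrophil genes 2 fell, both past both thresholds (0.701% of all genes were), and the median was -0.36. Lower means in Mut were found for 18 of the 19 (47.9% of all genes). Every Mut value was below every WT value for 9 of the 19, against 17.3% of all genes. *lyz*, lysozyme, had values of 162, 316 and 189 in Mut and of 443, 493 and 566 in WT (log2 fold change -1.22, adjusted p = 0.0292 from limma). The sums of this list were 1458, 1960 and 1537 in Mut and 2217, 2395 and 2571 in WT. Of 7 erythrocyte genes 1 fell, and of 24 circadian clock genes 1 rose and 2 fell (1.34% of all genes rose and 3.32% fell).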

How the data were processed

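The deposited scores at 8 dpf are whole numbers that the authors made from RNA-Seq reads. Per their notes and methods, reads were trimmed (Trimmomatic 0.33), aligned to GRCz10 (STAR 2.4.0a) and counted without reads that mapped to several places (featureCounts 1.4.5-p1). The authors then removed a batch effect from the log-transformed matrix with edgeR 3.16.5, since the 8 dpf samples had been collected at different times. The deposited scores at 5 dpf are counts that the authors normalized and rounded. As scores are not counts, limma 3.58.1 in R 4.3.3 was fitted to log2(score + 1), with eBayes and a mean-variance trend (two-sided; 8.04 total degrees of freedom at 8 dpf). Genes needed a mean of at least 5 over both groups. Batches were taken as replicates 1 and 2 against replicate 3. The labels do not give them, but removing a batch centres each batch on the same mean. The mean of Mut and WT replicate 3 lay within a median of 0.00572 log2 units of that of the other pools, against 0.0847 and 0.0862 for replicates 1 and 2. Keeping the batch in the model pays for the degree of freedom its removal took. Effects of the ages were compared by subtracting their log2 fold changes, with the standard errors of both fits combined, Satterthwaite degrees of freedom and Benjamini-Hochberg adjustment.

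Symbols were found for 19776 of the 20963 Ensembl identifiers, and positions of *crygm2* genes come from the RefSeq annotation of GRCz12tu. The authors' differential expression, made with DESeq2, was not used. The comparison, the gene lists and the rule for named genes were chosen with earlier results of these data known. The rule names *chchd4a* and *chchd4b*, the 10 largest rises and 10 largest falls past both thresholds without overlap, and, for each list, members past both thresholds, those with the highest values and the ends of its range. Only part of the genes that the rule names are shown in the text. Members outside this rule, among them *cpt1ab*, *ghrb* and *fgb*, were picked with their values known. A result withheld from the text is not reported here. Tested on simulated data, the 8 dpf fit recovered 48 of 50 changes of 1.2 on the log2 scale and 50 of 50 of 1.5. It made 1 false call among 20963 genes. The comparison of ages recovered 38 of 49 changes of 1.2 and 50 of 50 of 1.5, with 6 false calls among 20598 genes. The simulation gave all genes the same dispersion. Neither recovery nor the number of false calls was tested at the spread between the real pools, so these counts are no error rate of the real calls. Alternatives were other pseudocounts, filters, scalings, eBayes options and thresholds, no batch term, replicates 1 and 2 only, the replicate block, leaving out each library, and, for the lists, only symbols whose source does not depend on the genes the study called.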

Additional observations from a re-analysis of the deposited data

Results flagged for a closer look

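The genotype effect (log2 fold change, Mut over WT) differed between the ages for 1666 genes at an adjusted p under 0.05 from the limma fits of each age, and 127 of the 189 genes past both thresholds at 8 dpf that could be tested at both ages were among them. Age and feeding change together in these differences. *chchd4a*, the mutated gene, had a difference (8 minus 5 dpf) of -1.6. Among the 10 largest rises and the 10 largest falls past both thresholds at 8 dpf, the crystallins that differed were *crygm2c* (-3.55), *crygm2d14* (-2.41), *crygm2d17* (-2.39), *crygm2d11* (-1.93), *cryba2b* (-1.87) and *crygm2d15* (-1.83). Those of the 10 largest rises that differed were *cbx7b* (1.65), *si:dkey-269d20.3* (1.61), *si:ch211-89o9.4* (1.35), *pdk2b* (1.34), *gls2a* (1.26) and *ccdc141* (0.98).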

How the results depend on the processing

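The 190 genes past both thresholds became 0 with eBayes without trend, 91 with replicates 1 and 2 only, 977 with no fold change threshold and 29 at an adjusted p under 0.01, and ranged from 26 (without Mut replicate 1) to 195 (without WT replicate 1) with each library left out. The 1666 differences between ages became 898 without trend and ranged from 1055 to 1457 with libraries left out. Fits without Mut or WT replicate 3 take the genotype effect from replicates 1 and 2 only, so they add no separate check. Scaling every library to the same total moved the median log2 fold change of all genes to -0.03 and gave 227 genes, 35 of them higher in Mut. With the replicate number as a block 141 genes passed at 8 dpf and 1181 differed between ages. Same-numbered pools of Mut and WT had deviations correlated at -0.28, -0.18 and -1.0, the last forced by the batch removal, and were not taken as pairs.

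Of the values that changed sign, *chchd4a* had log2 fold changes from -0.14 to 0.075 with each library left out, and *crygm7* from -0.51 to 0.23. In no fit did either pass. No other gene named in the report changed sign under these alternatives. Of the 60 named genes past both thresholds, from 13 (without Mut replicate 2) to 49 (without WT replicate 1) still passed with a library left out, 52 with the replicate block, 47 with robust eBayes and 57 with libraries scaled to the same total. With only the genes whose symbol did not come from the tables of the study, which leaves fewer genes in a list, the counts past both thresholds were 33 of 42 for crystallins, 4 of 7 for other lens genes, 7 of 12 for squalene to cholesterol, 1 of 7 for mevalonate, 1 of 25 for intestinal genes, 1 of 20 for liver enzymes, 4 of 36 for FoxO and autophagy genes and 1 of 22 for gluconeogenesis and amino acid breakdown. A low value rests on few reads, and the depth at 8 dpf is not known.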

Other observations

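Of the 190 genes past both thresholds, 65 belong to none of the lists, and several that were chosen here after their values were seen are known from muscle. *ccdc141*, a coiled-coil protein of striated muscle, had values of 362, 403 and 313 in Mut and of 143, 127 and 165 in WT (log2 fold change 1.3, adjusted p = 0.00949 from limma). *hspb6*, a small heat shock protein of muscle, had 2153, 2614 and 2381 in Mut and 1566, 860 and 1165 in WT (1.03, adjusted p = 0.028 from limma), and it rose at 5 dpf too (0.68). *myf6*, a myogenic transcription factor, had 182, 244 and 200 in Mut and 123, 92 and 114 in WT (0.92, adjusted p = 0.0285 from limma). *aglb*, the glycogen debranching enzyme, had 1110, 1368 and 1450 in Mut and 879, 593 and 618 in WT (0.92).

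*rnpep*, an aminopeptidase, was the unlisted fall with the least spread, with 106, 142 and 126 in Mut and 364, 362 and 354 in WT (log2 fold change -1.53, standard error 0.14, adjusted p = 0.00708 from limma), and it passed with any single library left out. *cbx7b*, a Polycomb gene, had low values, 39, 33 and 32 in Mut and 11, 14 and 14 in WT (1.35, adjusted p = 0.029 from limma).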
